A study of Mus musculus with 6 samples.

Results

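The genes described here are 53 genes of DNA replication and of the passage from the G1 to the S phase of the cell cycle, chosen by symbol as a list of known replication and G1/S factors. Each was represented by the single-symbol probe set with the highest mean, and all 53 had one, of 19938 genes so represented. They were measured in mouse T cell acute lymphoblastic leukemia (T-ALL) on Affymetrix arrays. Both groups carried the same alterations: hematopoietic progenitors with a Zfx conditional allele (Zfx fl/y) and a tamoxifen-inducible Cre-ER transgene had been given Notch-IC, the active part of Notch, by retrovirus, and the resulting T-ALL cells were passed to sublethally irradiated secondary recipients. In the Tamoxifen group, labelled ZFX null, recipients received 5 mg of Tamoxifen a day by gavage for 3 days from day 10 after transplant, which turns on Cre and removes the X-linked gene of the zinc finger transcription factor Zfx. In the Vehicle group, labelled ZFX flox, they received vehicle. Sorted GFP+ leukemia cells were taken 48 hours after the last Tamoxifen dose. Each of 3 independent leukemias, lines 14843, 14844 and 14846, gave 1 array per group, so that each group held 3 arrays. The sources used here do not give the promoter driving Cre-ER or the age and number of recipients. No Tamoxifen group without Cre was analysed here, so that drug, Cre and gene loss cannot be told apart.

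Replication starts at origins bound by the origin recognition complex (ORC). Cdc6 and Cdt1 load the MCM helicase there during G1, which licenses the origin, and geminin blocks a repeat of this step by binding Cdt1. At the start of S phase the kinases Cdc7-Dbf4 and cyclin E-Cdk2 act on licensed origins, Cdc45 and the GINS complex complete the helicase, and polymerases copy both strands behind it. Many of these genes are targets of E2F transcription factors, which cyclin D and cyclin E kinases release from the retinoblastoma protein. Notch-driven T-ALL cells depend on cyclin D3 for this step.

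All values are log2 RMA intensities, whose level is comparable between arrays for 1 gene but not between genes. A difference is the Tamoxifen minus the Vehicle value on the log2 scale, and 3 values in a row are those of lines 14843, 14844 and 14846 in this order. Zfx itself lay at 10.96, 10.98 and 10.86 in Tamoxifen arrays, against 10.98, 10.90 and 10.72 in Vehicle arrays, with a limma adjusted p of 0.48. The deposited table holds 1 probe set for it, and the sources used here do not place it relative to the deleted part, so that this value does not check the labels. The 13 T-ALL markers named on the array averaged 12.10 to 12.31 in Tamoxifen arrays and 12.31 to 12.54 in Vehicle arrays. Of these 12 had a difference below 0 and 0 passed the threshold, where 58.6% of all tested genes had a difference above 0. All Tamoxifen arrays lay below all Vehicle arrays for 4 of the 13, where this held for 11.5% of tested genes. The largest differences were those of Rag2, at -0.75, and Notch3, at -0.46, with limma adjusted p of 0.057 and 0.096. Too dim to test were 3 of 5 B cell markers, 3 of 10 myeloid markers, 1 of 3 erythroid markers and 1 of 6 stromal and endothelial markers. The others passed the filter. The brightest of them was Pecam1, at 11.06, 11.01 and 11.17 in Tamoxifen arrays, against 10.90, 10.84 and 11.19 in Vehicle arrays.

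None of the 53 genes passed the test between treatments, and the differences were small. All 53 were bright enough to be tested, and 0 had an adjusted p under 0.05 by limma with line as a block, where 6.23% of the 13956 tested genes were called (870 genes). Of all tested genes 1.3% rose (182) and 4.93% fell (688), or 412 rose and 562 fell once arrays were centred on their median. Centring raised every difference by the same amount, and the median over all tested genes from 0.026 to 0.085. Without line as a block 0 of the 53 passed, where 2.11% of all tested genes did. The smallest adjusted p was 0.062, for Rfc3. The differences of the 53 ran from -0.26 for E2f2 to 0.31 for Orc1, with a median of 0.075 beside 0.026 over all tested genes. The 95% confidence interval of a difference had a median half-width of 0.18, and for 51 of the 53 it lay wholly within 0.5 log2 units of 0. Ccne2 and E2f2 had wider intervals, from -0.54 to 0.40 and from -0.67 to 0.15.

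Most of the small differences were on the same side. The fitted difference was above 0 for 44 of the 53 genes, or 83.0%, where it was above 0 for 58.6% of all tested genes. At an unadjusted p under 0.05 stood 9 of the 53, all higher in Tamoxifen arrays, or 17.0%, where 23.8% of all tested genes passed in either direction and 10.5% with a higher and 13.3% with a lower level. These were Orc1, Orc2, Orc3, Orc5, Prim1, Pole, Rfc3, Rfc4 and Fen1. All Tamoxifen arrays lay above all Vehicle arrays for 3 of the 53, Orc3, Orc5 and Rfc4, where this held for 12.2% of tested genes, and all lay below them for E2f1, where it held for 11.5%. Counts of separated genes among the 53 were thus below those shares. In RNA from a bulk of cells, a change in the share of cells in S phase and a change in the amount of these RNAs per cell cannot be told apart.

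**Figure D1:**
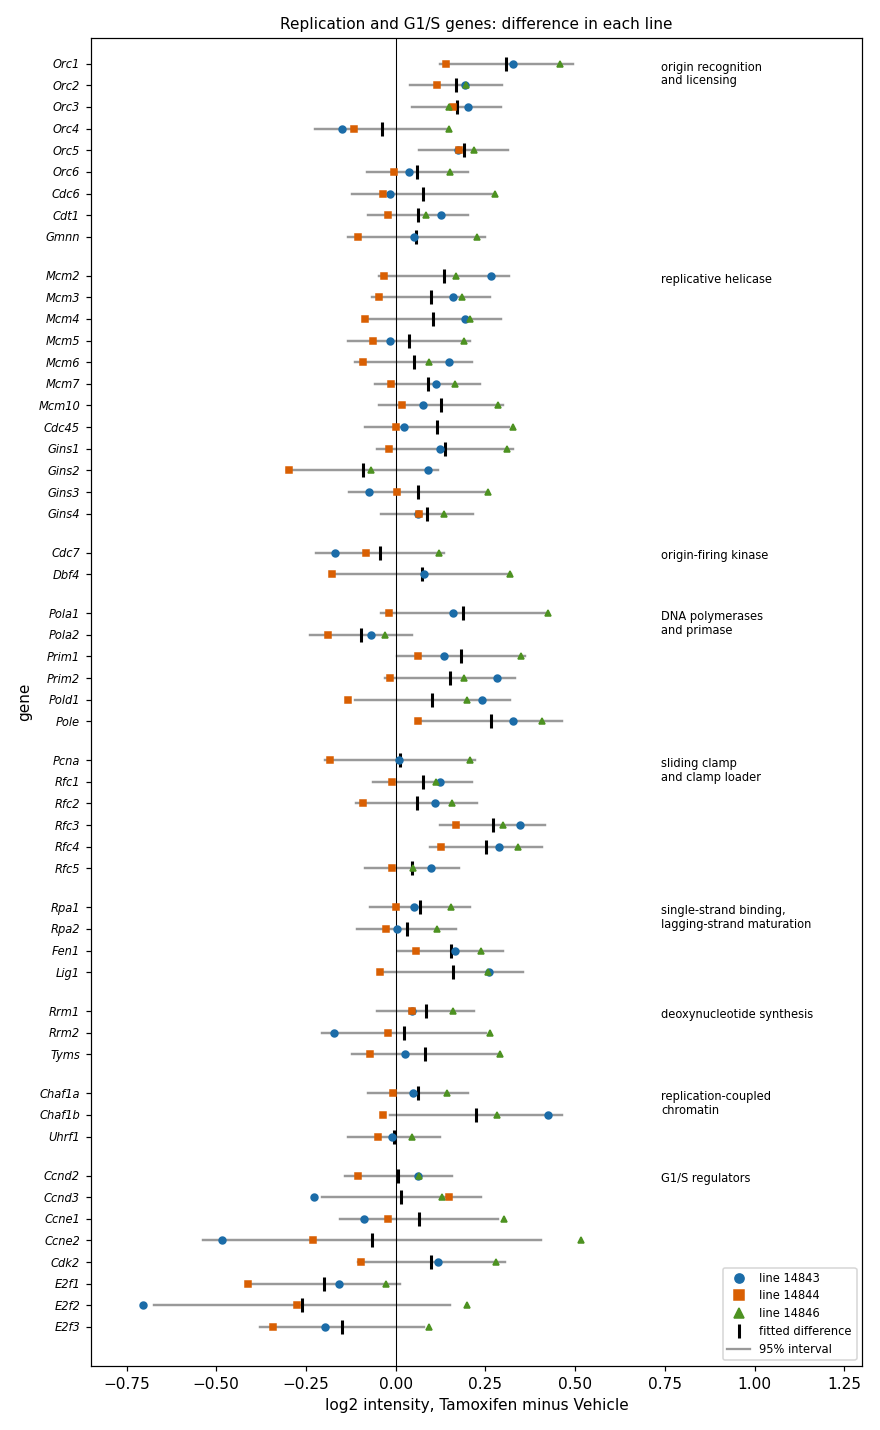
Difference of each of the 53 genes in log2 intensity, Tamoxifen minus Vehicle (horizontal axis), grouped by role. Coloured symbols are the 3 lines, black ticks the fitted differences and grey bars their 95% intervals; fitted differences run from -0.26 to 0.31 and most lie to the right of 0.

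The largest difference was that of an origin recognition gene, and 4 of the 6 ORC subunits were higher in every line. Of 9 licensing genes 8 had a difference above 0 and 0 passed, with a median of 0.075. The 6 ORC subunits among them had a median of 0.17. Orc1, the largest ORC subunit, whose level varies with the cell cycle, lay at 9.56, 9.72 and 9.79 in Tamoxifen arrays, against 9.23, 9.58 and 9.33 in Vehicle arrays. Only the Vehicle array of line 14844 reached into the Tamoxifen range. The difference was 0.31 ± 0.074 (SE), or 1.24-fold, with an adjusted p of 0.078. Orc5, an ATP-binding subunit of the complex, lay at 10.47, 10.48 and 10.59 in Tamoxifen arrays, against 10.29, 10.30 and 10.37 in Vehicle arrays. The groups did not overlap, at a difference of 0.19 ± 0.049 and an adjusted p of 0.093. Orc2 and Orc3, also subunits of the complex, both differed by 0.17, at adjusted p-values of 0.13 and 0.12, and were higher in each line. The other subunits were nearer to 0, Orc6 at 0.061 and Orc4 at -0.039, although Orc4 gave 0.020 once arrays were centred on their median and 0.0018 after a further quantile normalization.

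The loaders of the helicase and their inhibitor gave differences from 0.057 to 0.075. Cdc6 lay at 10.04, 10.34 and 10.15 in Tamoxifen arrays, against 10.05, 10.38 and 9.88 in Vehicle arrays. Line 14846 alone had a clearly higher Tamoxifen array, and the fitted difference was 0.075 ± 0.078. For Cdt1 the Tamoxifen arrays gave 10.80, 10.95 and 10.90 and the Vehicle arrays 10.68, 10.97 and 10.81. These ranges overlapped, with a difference of 0.062 ± 0.056. Gmnn, which encodes geminin, differed by 0.057 ± 0.076, from -0.11 in line 14844 to 0.23 in line 14846.

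The helicase genes gave small differences, from -0.092 for Gins2 to 0.14 for Gins1. All 6 subunits of the MCM ring, Mcm2 to Mcm7, had a fitted difference above 0, from 0.037 for Mcm5 to 0.13 for Mcm2, and none passed, with adjusted p-values from 0.32 to 0.77. Mcm2 lay at 12.52, 12.54 and 12.63 in Tamoxifen arrays, against 12.25, 12.57 and 12.46 in Vehicle arrays. The Tamoxifen arrays were close together, and the Vehicle array of line 14843 was lowest. In line 14844 all 6 subunits were lower in the Tamoxifen array, with a median of -0.054. In line 14846 all 6 were higher, with a median of 0.18, and in line 14843 5 of 6 were, with a median of 0.15. Gins1, a GINS subunit, lay at 10.64, 10.94 and 10.82 in Tamoxifen arrays, against 10.51, 10.96 and 10.51 in Vehicle arrays. Its difference of 0.14 ± 0.075 was within the spread between lines. Gins3 and Gins4 gave 0.063 and 0.087, while Gins2 gave -0.092 and was lowest in line 14844, at -0.30. Cdc45, which joins GINS in the active helicase, and Mcm10, which helps to activate it, gave 0.12 and 0.13. Over the 12 helicase genes the median was 0.094, 11 were above 0 and 0 passed.

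The origin-firing kinase showed no common direction. Cdc7, its catalytic subunit, lay at 9.39, 9.60 and 9.73 in Tamoxifen arrays, against 9.56, 9.68 and 9.60 in Vehicle arrays. Dbf4, its activating subunit, lay at 11.04, 11.07 and 11.30 in Tamoxifen arrays, against 10.96, 11.25 and 10.98 in Vehicle arrays. Each was higher in the Tamoxifen array of line 14846 and lower in that of line 14844. The fitted differences were -0.043 ± 0.071 for Cdc7, which gave 0.016 once arrays were centred on their median and 0.0075 after quantile normalization, and 0.073 ± 0.099 for Dbf4.

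Polymerase and primase genes had the highest median of the roles, 0.17, with 5 of 6 above 0 and 0 past the threshold. Pole, the catalytic subunit of the leading-strand polymerase epsilon, lay at 11.43, 11.57 and 11.73 in Tamoxifen arrays, against 11.10, 11.50 and 11.33 in Vehicle arrays. It was higher in each line, by 0.27 ± 0.079, with an adjusted p of 0.12, and the groups overlapped through the Vehicle array of line 14844. For Prim1, the catalytic primase subunit, Tamoxifen arrays gave 11.29, 11.51 and 11.53 and Vehicle arrays 11.15, 11.45 and 11.18. The difference of 0.18 ± 0.071 had an adjusted p of 0.21. Prim2, the other primase subunit, gave 0.15, the catalytic subunit Pola1 of polymerase alpha 0.19 and Pold1, the catalytic subunit of polymerase delta, 0.10. Pola2, the accessory subunit of polymerase alpha, was lower in each line, at -0.096 ± 0.057 and an adjusted p of 0.36.

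The gene nearest to the threshold was a clamp loader subunit, Rfc3. All 6 genes of this role lay above 0, with a median of 0.067, and 0 passed. Rfc3, a subunit of replication factor C, lay at 10.83, 11.01 and 10.95 in Tamoxifen arrays, against 10.48, 10.84 and 10.66 in Vehicle arrays. The Tamoxifen array was higher in each line, and the groups touched only where the Vehicle array of line 14844 reached the Tamoxifen array of line 14843. The difference was 0.27 ± 0.058, or 1.21-fold, with an adjusted p of 0.062. Once arrays were centred on their median it was 0.33, with an adjusted p of 0.042, which makes it a call. Rfc4, another small subunit, lay at 12.48, 12.59 and 12.59 in Tamoxifen arrays, against 12.20, 12.46 and 12.25 in Vehicle arrays. These groups did not overlap, at a difference of 0.25 ± 0.063 and an adjusted p of 0.085. The other subunits Rfc1, Rfc2 and Rfc5 gave 0.075, 0.058 and 0.045, so that members of the same complex differed in size of change, a contrast that was not tested. Pcna, the sliding clamp that the complex loads, lay at 13.28, 13.35 and 13.44 in Tamoxifen arrays, against 13.27, 13.54 and 13.23 in Vehicle arrays. It gave 0.012 ± 0.084, with line values of 0.0098, -0.18 and 0.21. A further probe set annotated to Pcna gave nearly the same values, 0.010, -0.17 and 0.19, and 2 probe sets that share transcripts are not independent.

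To show the control regions of the members nearest to the threshold, the promoter windows of Rfc3, Orc1, Rfc4 and Orc5 are printed from RefSeq (build GRCm38.p6), from 250 bases before to 50 after the start site, 5′ to 3′ on the strand of the gene. They lie at chr5:151651159-151651458 (minus strand), chr4:108579204-108579503 (plus strand), chr16:23127681-23127980 (minus strand) and chr5:22550289-22550588 (minus strand). Capitals mark matches on either strand to 3 motifs: the E2F motif as TTTGGCGC, TTTCCCGC, TTTGCCGC or TTTCGCGC, the CCAAT box as CCAAT, and the core of the reported Zfx motif as AGGCCT, none of which contains another.
Rfc3: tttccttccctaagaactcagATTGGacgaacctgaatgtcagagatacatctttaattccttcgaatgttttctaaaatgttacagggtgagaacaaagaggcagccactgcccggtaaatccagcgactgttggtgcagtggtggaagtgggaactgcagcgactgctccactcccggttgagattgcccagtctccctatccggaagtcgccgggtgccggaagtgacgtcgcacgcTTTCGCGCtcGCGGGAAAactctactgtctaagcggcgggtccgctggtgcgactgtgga
Orc1: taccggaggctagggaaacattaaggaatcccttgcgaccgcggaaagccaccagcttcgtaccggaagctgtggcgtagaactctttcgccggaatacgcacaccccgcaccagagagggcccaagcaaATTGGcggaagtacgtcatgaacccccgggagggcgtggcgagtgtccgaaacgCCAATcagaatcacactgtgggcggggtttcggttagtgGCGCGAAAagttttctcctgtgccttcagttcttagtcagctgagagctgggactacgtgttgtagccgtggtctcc
Rfc4: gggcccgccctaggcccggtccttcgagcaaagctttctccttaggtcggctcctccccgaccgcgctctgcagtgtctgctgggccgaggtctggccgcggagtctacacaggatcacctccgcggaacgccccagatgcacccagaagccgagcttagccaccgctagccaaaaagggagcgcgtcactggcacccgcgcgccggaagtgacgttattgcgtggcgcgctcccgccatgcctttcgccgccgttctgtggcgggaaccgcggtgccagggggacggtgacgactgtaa
Orc5: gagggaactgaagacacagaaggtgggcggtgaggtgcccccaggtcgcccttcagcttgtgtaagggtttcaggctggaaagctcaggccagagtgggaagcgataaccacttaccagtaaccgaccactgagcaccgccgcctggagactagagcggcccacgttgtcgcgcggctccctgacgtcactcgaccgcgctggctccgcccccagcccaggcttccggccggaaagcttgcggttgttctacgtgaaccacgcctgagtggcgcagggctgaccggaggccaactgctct
Rfc3 held 2 E2F matches, starting at -10 and 1 from the start site, and a CCAAT match at -229. Orc1 held 1 E2F match at -27 and CCAAT matches at -120 and -66. In the windows of Rfc4 and Orc5 none of these letters occurred.

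E2F matches were common in the promoters of the replication genes. RefSeq windows were at hand for 43 of the 53 genes, taking the window listed at the top for each gene. An E2F match was present in 15 of the 43, or 34.9%. It was held by 2.32% of the windows of all 27025 genes and by 3.86% of those of 11031 tested genes. Mcm6 had 3 matches, and Mcm3, Mcm5, Mcm7 and Rfc3 had 2 each. The median difference was 0.089 among the 15 genes with a match and 0.070 among the 28 without, a gap that was not tested. CCAAT was present in 58.1% of the 43 windows, where 37.9% of all windows and 37.9% of those of tested genes held it. The Zfx core was present in 7 of the 43, or 16.3%, where 10.3% of all windows and 10.8% of those of tested genes held it. Those 7 genes were Pcna, Rrm2, Mcm5, Cdc45, Rpa1, Prim1 and Fen1. All 7 had a difference above 0, as did 29 of the other 36. The median difference was 0.068 among the 7 and 0.075 among the other 36, a gap that was not tested. A match in these windows is a match of letters and does not show binding.

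Genes acting on single strands and lagging-strand fragments were all slightly above 0, with a median of 0.11 over 4 genes and 0 past the threshold. Fen1, the flap endonuclease that trims these fragments, lay at 10.29, 10.48 and 10.46 in Tamoxifen arrays, against 10.13, 10.42 and 10.22 in Vehicle arrays. It was higher in each line, by 0.15 ± 0.058, with an adjusted p of 0.20. Lig1, the ligase that seals them, lay at 11.37, 11.45 and 11.56 in Tamoxifen arrays, against 11.11, 11.49 and 11.30 in Vehicle arrays. It was lower only in line 14844 and gave 0.16 ± 0.078. Rpa1 and Rpa2, subunits of the complex that coats single strands, gave 0.068 and 0.030.

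Nucleotide supply genes differed by less than 0.1. Rrm1, the large subunit of ribonucleotide reductase, lay at 12.79, 13.02 and 12.98 in Tamoxifen arrays, against 12.74, 12.97 and 12.82 in Vehicle arrays. Rrm2, its S phase subunit, lay at 12.19, 12.42 and 12.37 in Tamoxifen arrays, against 12.36, 12.44 and 12.11 in Vehicle arrays. Rrm2 thus had opposite signs in lines 14843 and 14846, whereas Rrm1 was higher in each line. Tyms, which makes thymidylate, lay at 12.05, 12.17 and 12.34 in Tamoxifen arrays, against 12.03, 12.24 and 12.05 in Vehicle arrays. The fitted differences were 0.084 ± 0.054, 0.022 ± 0.091 and 0.082 ± 0.082 for Rrm1, Rrm2 and Tyms, and 0 of the 3 passed. Their median of 0.082 was -0.022 without line 14846.

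Among the chromatin factors of the replication fork, Chaf1b gave the largest difference, and 0 of 3 passed. Chaf1b, a subunit of chromatin assembly factor 1, which places histones on new DNA, lay at 11.20, 11.20 and 11.32 in Tamoxifen arrays, against 10.78, 11.23 and 11.04 in Vehicle arrays. The low Vehicle array of line 14843 and the nearly equal arrays of line 14844 left a difference of 0.22 ± 0.096, with an adjusted p of 0.23. Chaf1a, its large subunit, lay at 10.25, 10.44 and 10.40 in Tamoxifen arrays, against 10.20, 10.45 and 10.25 in Vehicle arrays, a difference of 0.062 ± 0.055. Uhrf1, which brings maintenance methylation to new DNA, gave -0.0047 ± 0.051, but 0.054 once arrays were centred on their median and 0.0012 after quantile normalization.

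**Figure D2:**
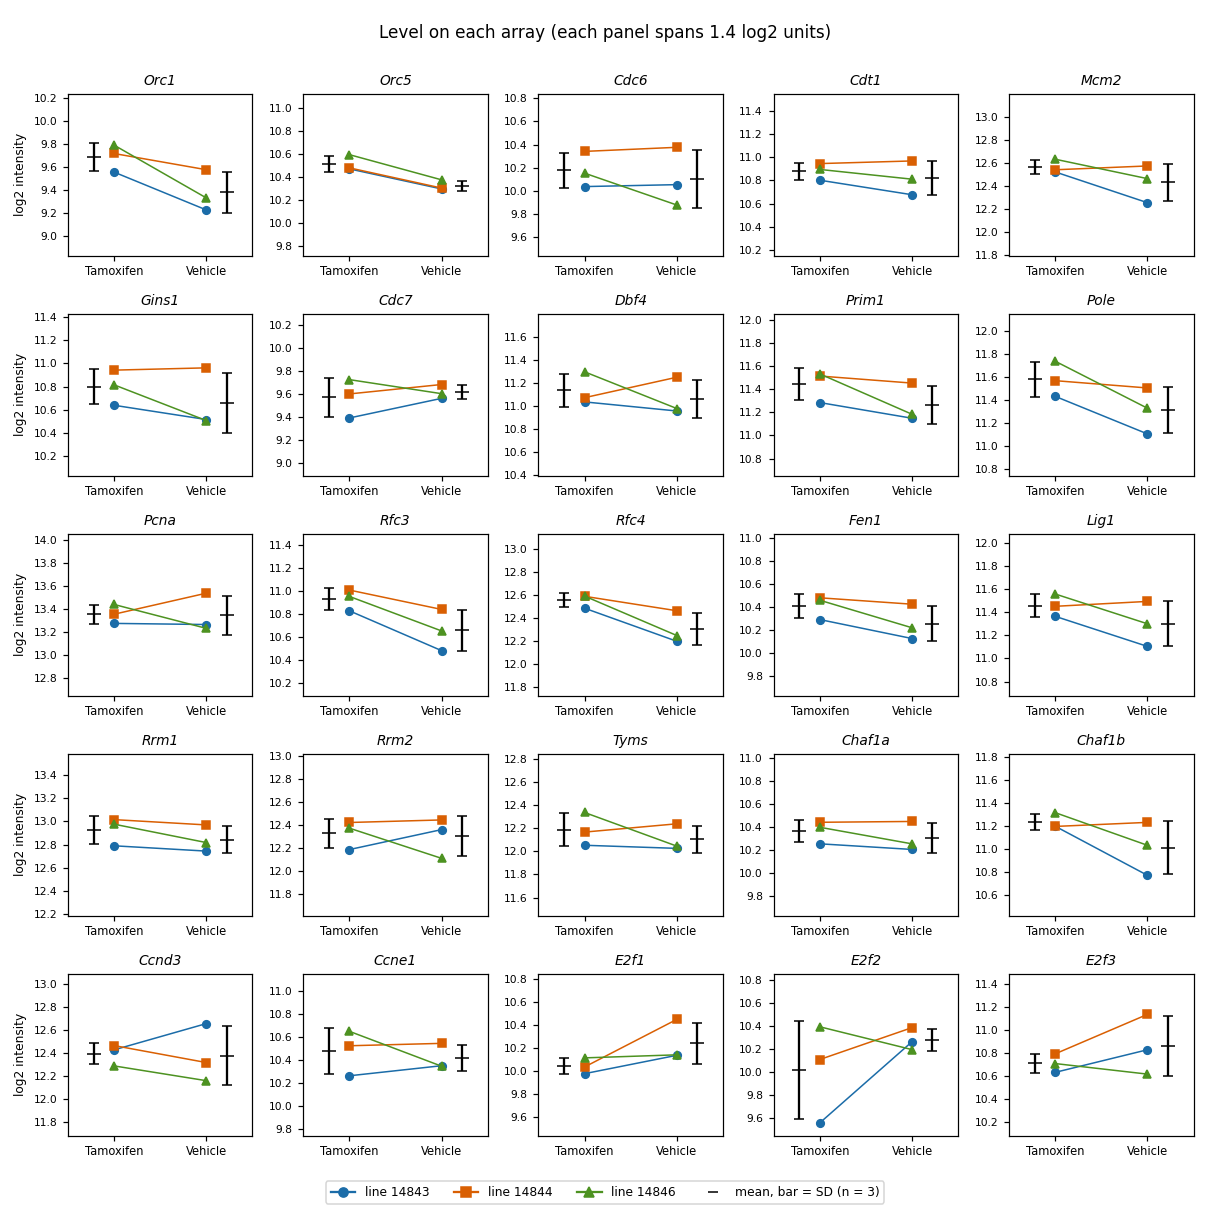
Log2 intensity (vertical axes, each panel spanning 1.4 log2 units) of 25 genes in Tamoxifen and Vehicle arrays, with the 2 arrays of a line joined and black marks for the mean and SD of each group (n = 3). In many panels the Vehicle arrays spread more widely than the Tamoxifen arrays, and line 14844 is flat or runs against the other lines.

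The G1/S regulators did not share the side of the replication genes. Of 8 genes 4 lay above and 4 below 0, 0 passed, and their median was -0.030. Once arrays were centred on their median it was 0.029, but the median over all tested genes then rose too, from 0.026 to 0.085. The median of the 8 genes was 0.035 without line 14843 and -0.16 without line 14846. The activating E2F genes were the lowest of all 53. E2f1 lay at 9.98, 10.03 and 10.11 in Tamoxifen arrays, against 10.13, 10.45 and 10.14 in Vehicle arrays. The groups did not overlap, although by little, and the difference was -0.20 ± 0.084, with an adjusted p of 0.23. E2f2 lay at 9.56, 10.11 and 10.39 in Tamoxifen arrays, against 10.26, 10.39 and 10.19 in Vehicle arrays. Here line 14843 was far lower in its Tamoxifen array and line 14846 higher, which gave -0.26 ± 0.16 and an adjusted p of 0.39. E2f3 lay at 10.63, 10.79 and 10.71 in Tamoxifen arrays, against 10.83, 11.13 and 10.62 in Vehicle arrays. Its difference was -0.15 ± 0.091, with an adjusted p of 0.38, and a dimmer probe set for it gave -0.088.

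Cyclins and their kinase varied by line. Ccnd3, the cyclin D of T-ALL named above, lay at 12.43, 12.47 and 12.29 in Tamoxifen arrays, against 12.66, 12.32 and 12.16 in Vehicle arrays. Line 14843 thus ran against the other lines, and the fitted difference was 0.016 ± 0.088. Ccne1, a cyclin E, lay at 10.26, 10.52 and 10.65 in Tamoxifen arrays, against 10.35, 10.54 and 10.34 in Vehicle arrays, and gave 0.065 ± 0.088. The other cyclin E, Ccne2, had the widest spread between lines of the 53, with line differences of -0.48, -0.23 and 0.52. Cdk2, the partner of cyclin E, gave 0.10 ± 0.082, and Ccnd2 0.0071 ± 0.059.

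The lines did not agree on the direction for most of the 53 genes. In line 14846, 50 of 53 genes were higher in the Tamoxifen array, or 94.3%, where 55.3% of all tested genes were. In line 14843, 39 of 53 were higher, or 73.6%, where 54.5% of all tested genes were. In line 14844 only 16 of 53 were higher, or 30.2%, where 56.6% of all tested genes were. The median differences in the 3 lines were 0.079, -0.023 and 0.19, while those of all tested genes were 0.016, 0.023 and 0.019. Line 14844 had the lowest of the 3 line differences for 42 genes, and line 14846 the highest for 40. Signs were mixed between lines for 37 of the 53, where they were mixed for 51.2% of all tested genes. All 3 lines were above 0 for 14 of the 53, where this held for 28.6% of tested genes, and all 3 below for Pola2 and E2f1 alone, where it held for 20.2%. With 1 pair of arrays per line, the difference between lines in this response was not tested.

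**Figure D3:**
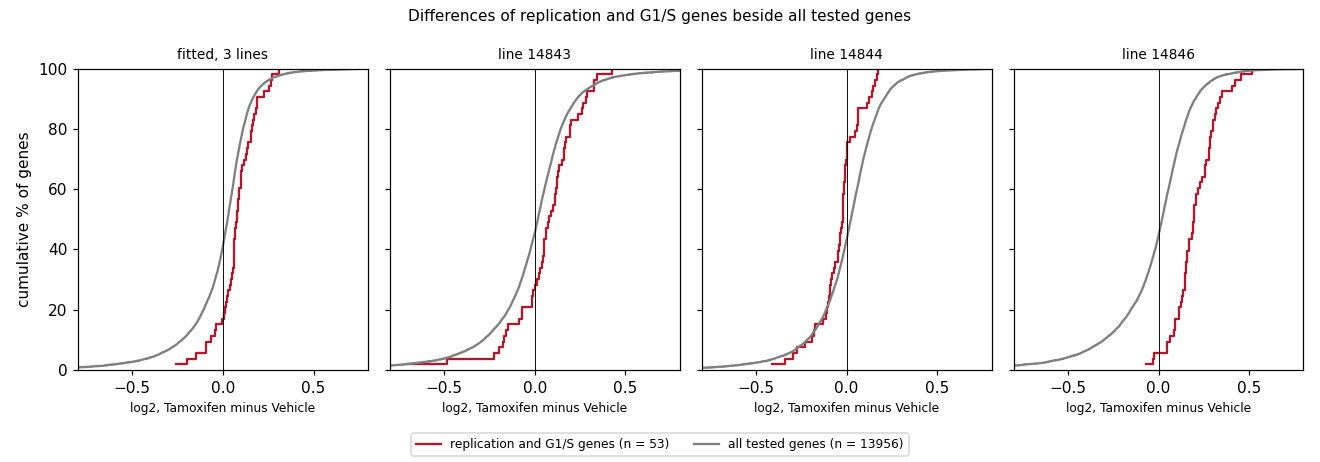
Cumulative percent of genes (vertical axis) by log2 difference, Tamoxifen minus Vehicle (horizontal axis), for the 53 replication and G1/S genes and for all 13956 tested genes, fitted and in each line. The 53 genes lie to the right of all genes in line 14846, with a median of 0.19, and near 0 in line 14844, with a median of -0.023; a few of all genes lie beyond the axis.

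The roles mostly kept this order of lines, except that line 14843 was lowest for the G1/S regulators. In each of the 9 roles the median was above 0 in line 14846, from 0.14 for the chromatin factors to 0.27 for the polymerases. In line 14844 it was below 0 in each role, from -0.17 for the G1/S regulators to -0.0057 for licensing. The 6 ORC subunits within licensing gave medians of 0.18, 0.13 and 0.17 in the 3 lines, thus above 0 in line 14844 as well, where 4 of the 6 were higher. Line 14843 gave 0.20 for the polymerases, 0.13 for licensing, 0.12 for the clamp and its loader and 0.10 for the helicase, against -0.18 for the G1/S regulators. Role medians depended on the lines included. Leaving out each line in turn gave 0.052 to 0.14 for licensing, 0.048 to 0.16 for the helicase, 0.084 to 0.24 for the polymerases and primase, 0.042 to 0.13 for the clamp and its loader and 0.067 to 0.15 for the single-strand and lagging-strand genes. The chromatin factors gave 0.021 to 0.096. The origin-firing kinase gave -0.087 to 0.087, nucleotide synthesis -0.022 to 0.11 and the G1/S regulators -0.16 to 0.035, so that these 3 changed sign. The lowest value came without line 14846 in every role but the clamp and its loader, where it came without line 14843. Without line 14846, 32 of the 53 genes had a fitted difference above 0 and the median was 0.025. Without line 14844 these were 46 and 0.13.

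**Figure D4:**
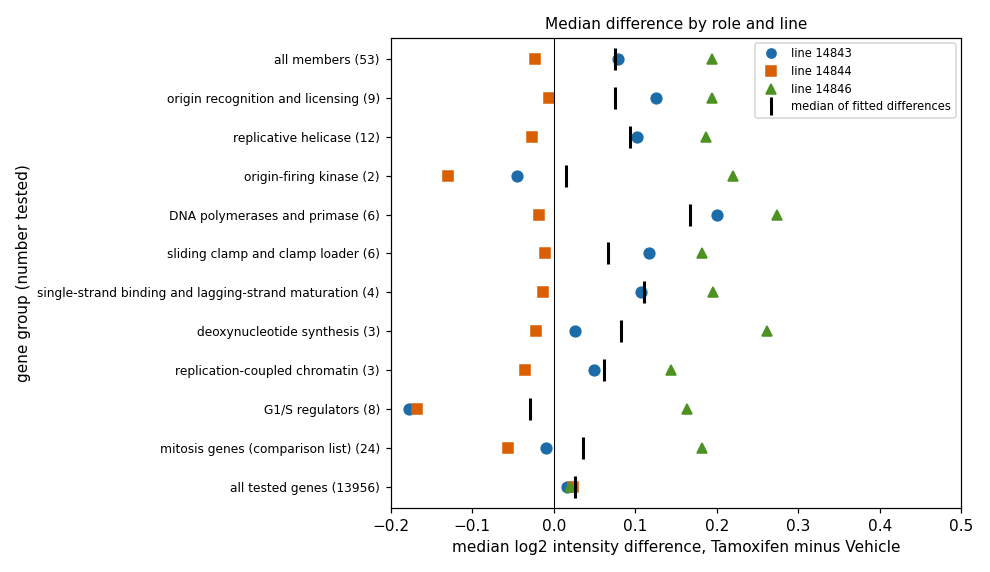
Median log2 difference, Tamoxifen minus Vehicle (horizontal axis), of each role in each line, with the number of genes tested in brackets and mitosis genes and all tested genes for comparison. Line 14846 lies above 0 in every role and line 14844 below it, while all tested genes lie near 0 in the 3 lines.

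The levels behind these differences set line 14844 apart in the Vehicle group. The mean level of the 53 genes was 10.99, 11.12 and 11.17 in Tamoxifen arrays, against 10.93, 11.16 and 10.97 in Vehicle arrays. The Vehicle array of line 14844 was the highest of the 3 Vehicle arrays for 50 of the 53 genes, where it was so for 26.6% of all tested genes. Over all 6 arrays the lowest was the Vehicle array of line 14843 for 33 of the 53, where it was so for 21.0% of all tested genes, and the highest the Tamoxifen array of line 14846 for 30, where it was so for 17.0%. The Vehicle arrays had the larger SD for 41 of the 53, where they had it for 62.1% of all tested genes. Some myeloid markers also stood higher in line 14844. The 10 myeloid markers averaged 7.45, 7.93 and 7.44 in Tamoxifen arrays, against 7.37, 7.75 and 7.42 in Vehicle arrays, with Csf1r, Adgre1 and Cd14 among them too dim to test. The higher average came mainly from Ngp, S100a8 and S100a9, genes of granulocytes: Ngp lay at 8.40, 10.37 and 8.61 in Tamoxifen arrays, against 8.04, 9.62 and 8.79 in Vehicle arrays. Itgam, an integrin of myeloid cells, was instead highest in line 14843, at 9.89, 9.04 and 8.81 in Tamoxifen arrays, against 9.61, 8.51 and 8.73 in Vehicle arrays. Of the stromal markers Col1a2 was highest in line 14844, at 8.45, 9.40 and 8.32 in Tamoxifen arrays, against 8.58, 9.57 and 8.13 in Vehicle arrays. Col1a1 was instead highest in line 14843. Of the B cell markers Cd79b was highest in the Vehicle array of line 14846. It lay at 8.66, 8.42 and 8.66 in Tamoxifen arrays, against 8.01, 8.30 and 9.56 in Vehicle arrays. Pax5, the other B cell marker bright enough to test, differed by 0.083, 0.15 and 0.073 in the 3 lines. The part of these markers in the pattern was not tested. When lines were compared over both treatments, limma's moderated F test called 0 of the 53 genes, where 3.11% of tested genes were called. The line means of each of the 53 spanned 0.041 to 0.38. Of 7 tested myeloid markers the same test called 4, Lyz2, Itgam, Ngp and S100a8. It called 1 of 5 tested stromal and endothelial markers, Col1a2, and 0 of the 13 T-ALL markers.

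The medians of mitosis genes, measured for comparison, followed the same order of lines. Of 24 tested genes 0 passed and 21 had a fitted difference above 0, where 58.6% of all tested genes did. The medians were -0.010, -0.056 and 0.18 in the 3 lines, and 9, 6 and 23 of the 24 genes were higher in the Tamoxifen array. Mki67, a marker of cycling cells, lay at 12.84, 12.86 and 12.96 in Tamoxifen arrays, against 13.01, 12.91 and 12.64 in Vehicle arrays. Its line differences were -0.17, -0.052 and 0.32, so that here line 14843 was the lowest. The fitted median of the mitosis genes was 0.036, against 0.075 for the replication and G1/S genes, a contrast that was not tested.

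Further genes of the same processes held 3 calls, 1 among 33 genes and 2 among 27. Of all tested genes 6.23% were called, 1.3% higher and 4.93% lower, so that these counts were near that share. Among 33 other replication factors, all tested, 23 lay above 0 and the median was 0.089. Of the 33, 16 were higher and 3 lower in all 3 lines, where 28.6% and 20.2% of tested genes were. All Tamoxifen arrays lay above all Vehicle arrays for 9, against 12.2% of tested genes, and below them for 0, against 11.5%. In line 14844, 17 of the 33 were higher, where 56.6% of all tested genes were. The largest difference was that of Pole2, at 0.38, with an adjusted p of 0.068. Mtbp, a partner of Treslin in origin firing, alone passed. It rose, at 10.15, 10.20 and 10.22 in Tamoxifen arrays, against 9.79, 9.99 and 9.75 in Vehicle arrays. Its groups did not overlap, and the difference was 0.34 ± 0.068, or 1.27-fold, with an adjusted p of 0.049. Among 27 other G1/S control genes, 12 lay above 0, the median was -0.014, and E2f5 and E2f6 fell. Both encode E2F proteins known as repressors of E2F targets. E2f5 lay at 8.02, 8.59 and 8.37 in Tamoxifen arrays, against 8.72, 9.08 and 8.69 in Vehicle arrays, and fell by 0.50 ± 0.081, with an adjusted p of 0.029. E2f6 lay at 10.20, 10.49 and 10.46 in Tamoxifen arrays, against 10.55, 10.80 and 10.80 in Vehicle arrays, and fell by 0.34 ± 0.049, with an adjusted p of 0.024. For each of them the arrays of the groups did not overlap. The fit without line as a block called none of the 3, with adjusted p of 0.087 for Mtbp, 0.22 for E2f5 and 0.20 for E2f6. Mtbp also lost its call with no filter on dim genes, at 0.057, and E2f5 after quantile normalization, at 0.052. Leaving out line 14843, 14844 or 14846 also ended the calls of Mtbp, at 0.12, 0.12 and 0.11, and of E2f6, at 0.077, 0.14 and 0.059, and leaving out line 14843 or 14844 ended that of E2f5, at 0.056 and 0.16. Of 10 tested genes among 13 of deoxynucleotide metabolism 0 passed, with 6 above 0 and a median of 0.031.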

How the data were processed

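The data are 6 Affymetrix arrays, 1 Tamoxifen and 1 Vehicle array for each of 3 leukemia lines. The authors deposited linear intensities per probe set. The submitters' processing notes name Affymetrix Expression Console 1.1 and RMA. RMA equalises the intensity distributions of arrays, so that a change in total RNA per cell is not visible. Array medians lay between 202 and 208. Arrays have no read depth, and their number limits the precision.

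Here log2 was taken. Of 35556 probe sets 21789 had 1 gene symbol in the platform annotation, and the probe set with the highest mean stood for each of 19938 genes. Genes with a mean at or above the 30th percentile, 6.70, were tested with limma 3.58.1 in R 4.3.3, with treatment and line as terms, two-sided, with Benjamini-Hochberg adjustment over 13956 genes and a threshold of 0.05. Line was a block because the series design gives each leukemia to both treatments. Arrays of the same line deviated together from their group means over all tested genes (r of 0.64, 0.68 and 0.68 in lines 14843, 14844 and 14846). Over the 53 genes alone these were -0.082, 0.34 and 0.17, and the Tamoxifen array of line 14844 with the Vehicle array of line 14843 gave 0.40, so that the pairing was not seen in these genes by themselves. The fit without the block called 0 of them as well. Each group has 1 sample per leukemia. With line as a block, treatment p-values rest on how the Tamoxifen minus Vehicle difference within a line varies between 3 leukemias. The variance is moderated by limma over all tested genes. The steps were tested on simulated data, where the pass mark for recovery was set at changes larger than any difference of the 53 genes. Recovery of differences of the size seen here was not part of that mark. The members, the other lists and the tests were chosen with earlier results of these data known. Values on every array are given for the 2 genes of each role with the smallest p, the largest and smallest difference, and 8 genes chosen by symbol, 25 in all since some meet more than 1 condition. Other lists name their called genes, and Mki67 and genes named with a difference alone are extra. Alternatives covered the block, the filter, the choice of probe set, normalization, eBayes settings and each line left out.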

Additional observations from a re-analysis of the deposited data

Results flagged for a closer look

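Treatment differences of opposite sign in at least 2 lines mark the results below; the difference between lines was not tested, since each line has 1 pair of arrays. The value given is the highest minus the lowest line difference, in log2 units. It was 0.22 for the median over the 53 genes. For role medians it was 0.20 for licensing, 0.21 for the helicase, 0.35 for the origin-firing kinase, 0.29 for the polymerases and primase and 0.19 for the clamp and its loader. It was 0.21 for the single-strand and lagging-strand genes, 0.28 for nucleotide synthesis, 0.18 for the chromatin factors and 0.34 for the G1/S regulators.

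Among single genes E2f2 had the widest such spread of those named by the rule, 0.90, followed by Dbf4 at 0.50, Chaf1b at 0.46, Rrm2 at 0.43 and E2f3 at 0.43. Ccne1 and Pcna both gave 0.39, Ccnd3 gave 0.37 and Tyms 0.36. Gins1 stood at 0.33, Cdc6 at 0.31, Lig1 at 0.30, Mcm2 at 0.30 and Cdc7 at 0.29. Chaf1a and Cdt1, both at 0.15, spread least. Except in Cdc7, Rrm2, Ccnd3, Ccne1 and E2f2, line 14844 was the lowest line in each of these single genes.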

How the results depend on the processing

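Under 10 alternatives, 0 of the 53 genes passed in 9. With arrays centred on their median 1 passed, Rfc3, where 974 of the 13956 tested genes did. This centring also raised the median over all tested genes from 0.026 to 0.085. The smallest adjusted p of the 53 then ranged from 0.042 to 0.18 over the 10. Without the replicate block 295 genes of the whole array passed, and 0 of the 53. Leaving out 1 line gave 70 to 669 genes of the whole array and a median over the 53 of 0.025 to 0.13, with 0 of the 53 past the threshold. The fit without line 14844 had the fewest calls, 70, and that without line 14843 had 498; such fits have fewer arrays. Of 530 fitted values, 26 in 17 genes had the opposite sign to the main fit, none of them past the threshold. Many of the 530 could not change sign, since the settings for block, filter and eBayes leave the fitted difference as it is. The mean of probe sets gave 0 such changes. All 26 thus arose from normalization or from a line left out, 12 of them without line 14846. Among these 12 were Pcna at -0.086, Rrm2 at -0.098, Ccne1 at -0.054 and Mcm5 at -0.039. With 2 residual degrees of freedom, differences of the size seen here lie near the limit of the design, so that a missed threshold does not show equal levels. The cause of these shifts was not tested.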

Other observations

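Across the 53 genes, the treatment differences of lines 14843 and 14844 correlated at 0.52, those of 14844 and 14846 at 0.35 and those of 14843 and 14846 at 0.14. Genes are not independent, and the values are a description. The 9 genes of the ORC and the helicase loaders and the 8 G1/S regulators differed most in line 14843, with medians of 0.13 and -0.18.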
